A study of Mus musculus with 3 samples.

Results

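Sympathetic nerve and Schwann cell genes were read as 7 genes, Th, Dbh, Npy, Ngfr, Mal, Mbp and Sox10, in RNA of brown fat, a tissue that makes heat. All non-control probes whose RefSeq accession belongs to one of these genes were taken, which gave 9 of the 55678 probes and 7 of the 36798 gene names on the array. Mbp had 3 probes and each other gene had 1. The Ngfr probe was printed as 10 spots and every other probe as 1 spot. Tissue came from male mice of 10 weeks on regular chow, Ad-Lkb1 (strain C57BL/6J) or wild-type littermates (strain C57BL/6). Ad-Lkb1 stands for deletion of LKB1, the kinase encoded by Stk11, and the labels do not say which promoter drove it. On each of 3 two-colour arrays, RNA of 1 Ad-Lkb1 sample carried Cy5 and RNA of 1 wild-type sample carried Cy3, and the design text calls the 3 samples of each genotype biological replicates. Dye, strain name and genotype cannot be told apart. The single comparison asks how LKB1 deletion changed expression in this tissue.

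Brown fat is driven by sympathetic nerves, whose axons release noradrenaline onto adipocytes. The cell bodies of these neurons lie in ganglia outside the fat, so the tissue holds their axons together with the Schwann cells that wrap them. Noradrenaline is made from tyrosine by enzymes that include tyrosine hydroxylase (Th) and dopamine beta-hydroxylase (Dbh), and neuropeptide Y (Npy) is released with it. Schwann cells depend on the transcription factor Sox10, carry the neurotrophin receptor encoded by Ngfr, and when myelinating make myelin basic protein (Mbp) and the small lipid-raft protein MAL (Mal).

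Ratios are given as log2 of Ad-Lkb1 over wild type throughout. Stk11 had -1.26, -1.17 and -1.17 on arrays 1 to 3. The scanner software marked 46.7% to 51.3% of non-control spots per channel as well above background and 0 as saturated. Precision is set by there being 3 arrays. Over all features tested, the median log2 ratio was -0.0099 and the median SD between arrays was 0.15. Skeletal muscle genes differed in sign between arrays. The median log2 ratio of 5 muscle markers was -3.17, 2.36 and 3.90 on arrays 1 to 3, with 0 of the 5 called, and Actn3, Ckm and Myh2 were below the detection rule.

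Of the 7 genes, 5 were detected well enough to be tested, and 2 of them changed. Mal rose 3.51-fold in Ad-Lkb1 tissue and Th was 1.33-fold higher in wild type. Ngfr, Mbp and Sox10 did not pass the threshold, and Dbh and Npy had no kept probe. For comparison, 8.70% of all 19328 genes and unnamed features passed (4.78% higher and 3.92% lower in Ad-Lkb1). Of the 13129 with a gene symbol, 10.6% passed. A gene counted as detected if a probe stood well above background on every array in the wild-type channel, or on every array in the Ad-Lkb1 channel, and a gene short of this is called below the detection rule. A change in such whole-tissue values cannot tell fewer cells of a type from less RNA per cell.

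**Figure D1:**
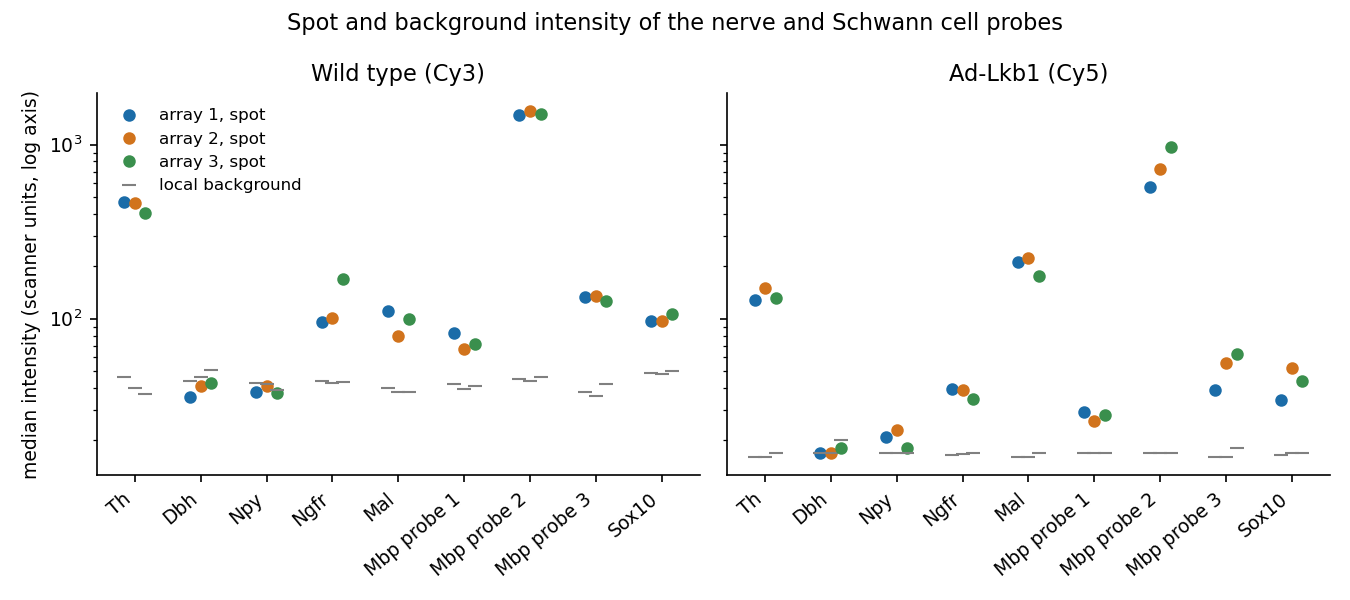
Median spot intensity (points) and local background (grey dashes) of the 9 probes in wild type (left) and Ad-Lkb1 (right), in scanner units on a log axis, coloured by array. Dbh lay at or below its background in both genotypes, while Mbp probe 2 read between 1489 and 1564 in wild type.

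**Figure D2:**
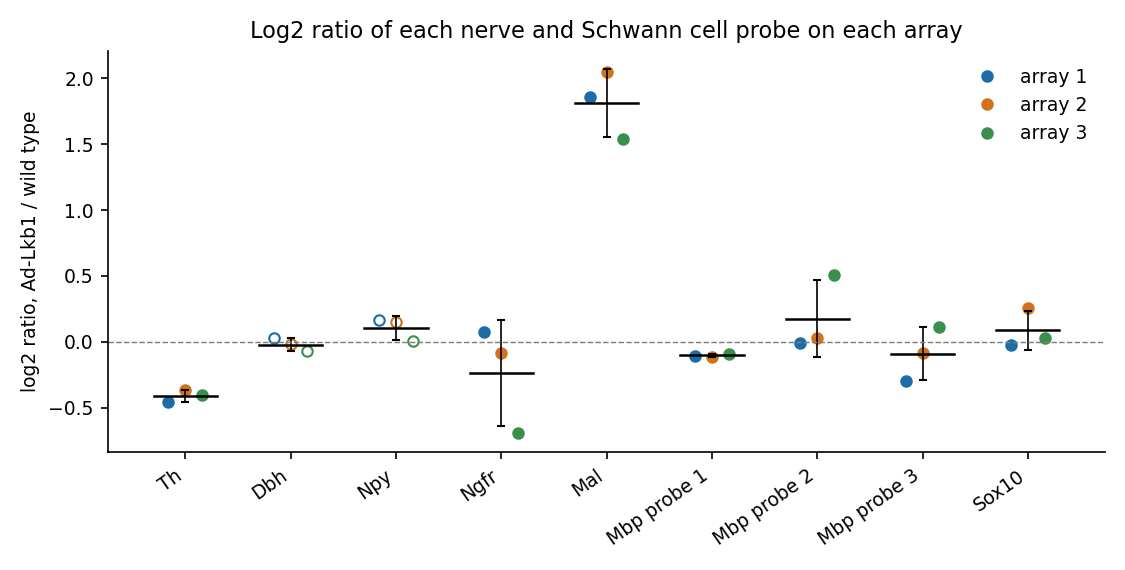
Log2 ratios (Ad-Lkb1 to wild type) of the 9 probes on each array (points). Black lines are means with SD over 3 arrays, and open points are probes below the detection rule. All 3 points of Mal lay above 1.5, and all 3 of Th between -0.46 and -0.37.

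Tyrosine hydroxylase carries out the rate-limiting step of noradrenaline synthesis. In wild type its spot read 470, 461.5 and 405 scanner units on arrays 1 to 3, over backgrounds of 46, 40 and 37. In Ad-Lkb1 it read 128, 151 and 132 over backgrounds of 16, 16 and 17 in the other dye. After normalization the log2 level was 8.49, 8.40 and 8.23 in wild type and 8.03, 8.03 and 7.83 in Ad-Lkb1. The groups did not overlap, which was true of 36.3% of all features. Its ratio was -0.46, -0.37 and -0.40, a mean of -0.41 ± 0.046 (SD, n = 3 arrays) with SE 0.068 and adjusted p = 0.039 (limma). Th varied little between arrays, and 91.5% of all features had a larger SD. The call is close to the threshold. It was lost with an offset of 10, without background subtraction, with the scanner software's processed signals and with the deposited table, where the adjusted p lay between 0.069 and 0.11, and also when any array was left out (0.069 to 0.18). Th was below 0 under all 12 alternatives, and with median centring, which moved the median of all features to -0.42, it was -0.99.

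Dopamine beta-hydroxylase converts dopamine to noradrenaline in the vesicles of the same neurons. Its probe was well above background on 0 of 3 arrays in either genotype. The spot read 35.5, 41 and 42.5 in wild type against backgrounds of 44, 46 and 51, and 17, 17 and 18 in Ad-Lkb1 against 17, 17 and 20. Neuropeptide Y, a co-transmitter that constricts vessels and restrains noradrenaline release, reached that mark in wild type on 0 of 3 arrays and in Ad-Lkb1 on 1 of 3, array 2. The Npy spot read 38, 41 and 37.5 in wild type against backgrounds of 42.5, 42 and 39, and 21, 23 and 18 in Ad-Lkb1 against 17. Ratios of these genes are not read as changes, since neither genotype was measured above background on all arrays. A spot that is not well above background does not show that the transcript was absent.

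The promoters of Th and Dbh are shown because these genes encode enzymes of the same pathway and yet only Th was detected, and that of Mal because it is the gene that rose. Each run is the 250 bases before the gene's start in RefSeq (GRCm38.p6), 5′ to 3′ on the gene's strand. Capitals mark matches on either strand to TGACGTCA (a full cAMP response element), TGACG (its shorter core, which overlaps the full element), TAATTG (a homeodomain core) or TATAAA (the core promoter box). CANNTG, the E-box, was also searched but is not marked, since 66.2% of windows hold it. These motifs were picked with the sequences in view.
Th, chr7:142899996-142900245, minus strand: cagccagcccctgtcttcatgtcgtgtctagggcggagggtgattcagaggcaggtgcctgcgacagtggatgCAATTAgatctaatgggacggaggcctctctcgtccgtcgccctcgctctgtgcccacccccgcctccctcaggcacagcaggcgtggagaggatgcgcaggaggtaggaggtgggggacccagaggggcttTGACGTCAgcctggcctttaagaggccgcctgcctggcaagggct
Dbh, chr2:27165257-27165506, plus strand: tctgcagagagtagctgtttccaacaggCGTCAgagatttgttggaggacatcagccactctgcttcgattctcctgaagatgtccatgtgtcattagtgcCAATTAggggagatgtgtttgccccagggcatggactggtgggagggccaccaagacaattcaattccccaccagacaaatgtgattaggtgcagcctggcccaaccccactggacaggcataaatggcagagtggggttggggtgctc
Mal, chr2:127656696-127656945, minus strand: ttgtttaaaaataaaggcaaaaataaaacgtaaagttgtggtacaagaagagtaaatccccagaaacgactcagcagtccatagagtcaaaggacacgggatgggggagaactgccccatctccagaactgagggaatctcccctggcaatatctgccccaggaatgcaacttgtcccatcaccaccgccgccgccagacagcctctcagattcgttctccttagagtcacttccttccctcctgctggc
The Th window held 1 full cAMP response element, starting 45 bases before the gene's start, where 1.55% of 32851 promoter windows hold one. It also held 1 match to TAATTG, starting 177 bases upstream. The Dbh window held TGACG alone, 222 bases upstream, a match found in 17.8% of windows, and TAATTG 149 bases upstream, found in 7.17%. The Mal window held none of the 4 marked motifs (TATAAA is in 12.4% of windows). A match is a description of the letters and not a measured binding site.

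Of 12 genes for making, storing and clearing noradrenaline, 7 were tested, and 2 rose and 2 fell, against 4.78% and 3.92% of all features. Their median log2 ratio was -0.34 (0.014 over all 12 genes without the filter). With median centring it was -1.03, where the median of all features was -0.42. The noradrenaline transporter Slc6a2, the vesicular transporters Slc18a1 and Slc18a2 and the decarboxylase Ddc were below the detection rule, as was Pnmt, which makes adrenaline. Cyb561, an electron carrier of secretory vesicle membranes, rose with log2 ratios of 1.66, 1.47 and 1.45 (mean 1.52 ± 0.12 SD, adjusted p = 0.010, limma). Gch1, which starts synthesis of the cofactor of tyrosine hydroxylase, had 0.94, 0.94 and 0.40 (mean 0.76, adjusted p = 0.046), but its other kept probe had a mean of 0.05 and did not pass (adjusted p = 0.72). Maob, which oxidises monoamines, fell with -0.58, -0.79 and -0.91 (mean -0.76, adjusted p = 0.024). Maob is made by many cell types. Gch1 lost the call under 6 of the 12 alternatives, and Maob under 4.

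Of 28 genes of sympathetic neuron identity and axons, 10 were tested and 0 passed the threshold (limma), with 4 at an unadjusted p under 0.05. Over all 19328 features 8.70% passed, and 5671 had an unadjusted p under 0.05 in the same fit. The median log2 ratio of the 10 genes was -0.015, and it lay just above 0 (0.0031 to 0.019) under 5 of the 12 alternatives. It lay at -0.098 without array 3, and at -0.24 with median centring, where the median of all features was -0.42. The count of 0 became 4 with median centring and 1 with the processed signals or the deposited table. Under these settings 10097, 807 and 806 of all features passed, in that order. Below the detection rule were the transcription factors Phox2a and Hand2, the neurofilament genes Nefl, Nefm and Nefh, and Prph, Tubb3, Uchl1 and Gap43. The smallest p belonged to Vamp2, a vesicle fusion protein, with -0.40, -0.59 and -0.15 (mean -0.38, adjusted p = 0.10). The summed level of the 10 genes ran from 10.99 to 11.11 on the log2 scale in wild type and from 10.88 to 11.06 in Ad-Lkb1, so the genotypes overlapped. Th thus stood as the only one of Th, Dbh, Slc6a2, Slc18a2, Ddc and Phox2a to be tested.

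Around Npy, 5 of 11 genes for its receptors and processing were tested and 0 passed (limma), with 1 at an unadjusted p under 0.05 and 1 called with median centring. Over all 19328 features 8.70% passed, 5671 had an unadjusted p under 0.05, and 10097 were called with median centring. Pam, which amidates peptide hormones, had the smallest p, with 0.35, 0.21 and 0.22 (mean 0.26, adjusted p = 0.098). The receptor Npy1r, chosen here after its values were seen, had 0.0070, 0.20 and -0.16 on the 3 arrays, which lie on both sides of 0. Npy2r, Npy4r, Npy5r and Npy6r were below the detection rule.

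Mal encodes a tetraspanning membrane protein of lipid rafts that is abundant in myelin and is also made by T lymphocytes and by polarised epithelia. Its spot read 111, 80 and 99 in wild type over backgrounds of 40, 38 and 38. In Ad-Lkb1 it read 213, 223 and 175 over backgrounds of 16, 16 and 17. The log2 level was 6.71, 6.41 and 6.56 in wild type and 8.57, 8.46 and 8.10 in Ad-Lkb1. The groups of Mal did not overlap, which was true of 36.3% of all features. On the 3 arrays its ratio was 1.86, 2.04 and 1.54, a mean of 1.81 ± 0.26 (SD, n = 3) with SE 0.12 and adjusted p = 0.011 (limma). Of the 19328 features, 83 had a higher ratio. The ratio was 3.05 from the software's processed signals, 2.42 at offset 10, 2.38 with background left in and 1.34 with median centring, so its size depends on the processing. Under median centring the median of all features was -0.42. Mal did not pass without array 1 (adjusted p = 0.14) or without array 2 (adjusted p = 0.088), where limma called 0 of all features.

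**Figure D3:**
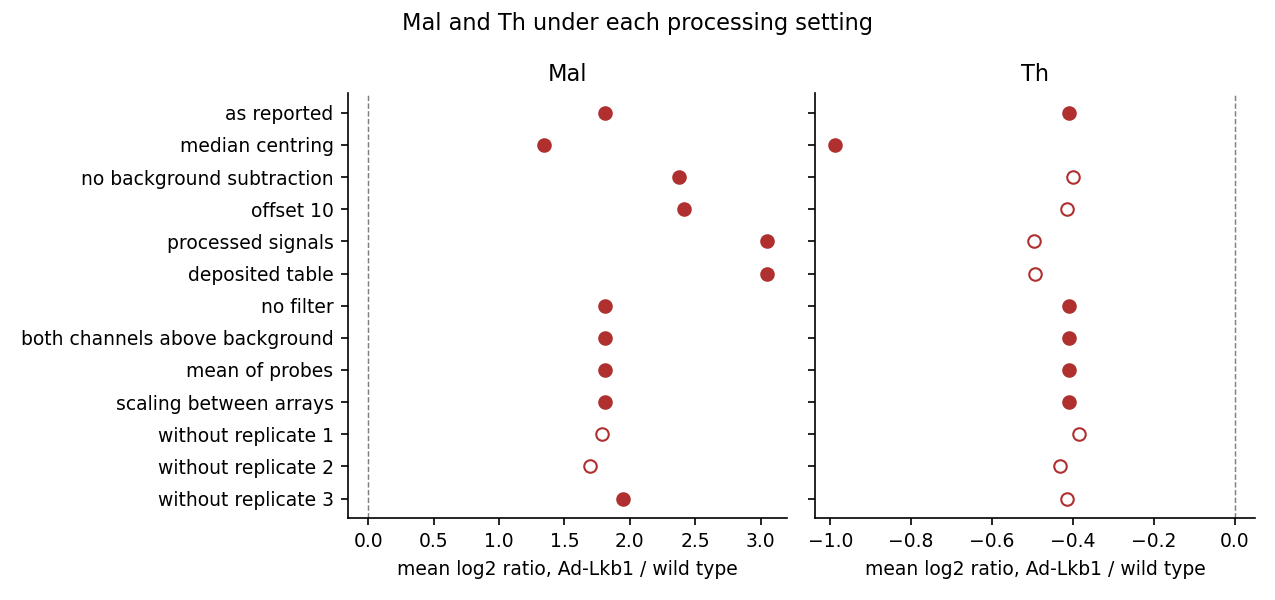
Mean log2 ratio of Mal (left) and Th (right) under each processing setting. Filled points passed the adjusted p threshold of 0.05 and open points did not. Mal lay between 1.34 and 3.05 and Th between -0.99 and -0.39, each on one side of 0.

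The tested markers of lymphocytes, epithelia, oligodendrocytes and central neurons did not pass, and some of those of macrophages and fibroblasts rose. The part of lymphocytes, epithelia or oligodendrocytes in the rise of Mal was not tested. Among T and B lymphocyte markers 0 of 5 tested passed, with a median of 0.40, 0.44 and -0.89 on arrays 1 to 3. The lymphocyte sum ran from 10.03 to 10.74 in wild type and from 10.06 to 10.15 in Ad-Lkb1 on the log2 scale, and Cd79a, Ms4a1 and Cd8a were below the detection rule. Of 6 epithelial markers 2 were tested and 0 passed, with sums of 7.28 to 7.48 and 7.26 to 7.34, and Epcam, Cdh1, Krt8 and Krt18 were below the rule. Of 8 markers of oligodendrocytes and central neurons 4 were tested and 0 passed, with sums of 9.16 to 9.77 and 9.09 to 9.29, and Olig2, Gad1, Gad2 and Slc17a7 were below the rule. Snap25, the only neuron gene among these 4, was also counted among the axon genes, so it is not particular to central neurons. Macrophage markers were higher, 6 of 9 tested and 0 lower, where 4.78% of all features were higher. Their median was 2.06, 2.23 and 1.04 on the arrays. Their sum reached at most 12.58 in wild type and ran from 13.53 to 13.78 in Ad-Lkb1, Cd163 was below the rule, and the part of these cells in the rise of Mal was not tested. Markers of fibroblasts and adipose progenitors had 3 of 7 higher and 0 lower (sums 13.56 to 14.09 and 14.40 to 14.78), and their part was not tested either. Adipocyte markers had 1 of 8 higher and 0 lower. Endothelial markers had 1 of 6 higher and 1 lower, and pericyte and smooth muscle markers 1 of 7 higher and 1 lower. The part of these cells was not tested.

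Of 13 further genes of the MAL family and of lipid rafts, 11 were tested, 3 rose and 0 fell, with a median of 0.15. Over all features 4.78% rose and 3.92% fell. Plp2, a proteolipid of the same membrane-domain family, had 0.85, 0.90 and 0.82 (mean 0.86 ± 0.04 SD, adjusted p = 0.013, limma). Mall, which encodes a MAL-like protein, had 0.58, 0.38 and 0.78 (mean 0.58, adjusted p = 0.042), and Cmtm3 had 0.50, 0.60 and 0.38 (mean 0.50, adjusted p = 0.036). Median centring, which moved the median of all features to -0.42, gave a list median of -0.44 and -0.057 for Cmtm3. Plp2 fell short of the threshold there at 0.23 (limma adjusted p = 0.17). Plp2 lost the call under 3 of the 12 alternatives and Mall under 7. The genes whose 3 ratios lay nearest to those of Mal were Derl3 (Euclidean distance 0.19 in log2 units), Gm13889 (0.25) and Ucp2 (0.26). Those nearest to Th were Dnpep (0.022), Vamp4 (0.028) and Zdhhc5 (0.046). With 3 arrays this likeness is a description of values only.

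Mbp encodes the main structural proteins of compact myelin, and its locus also yields transcripts made outside myelin. Its 3 probes lay on both sides of 0. The probe of NM_001025245, Mbp probe 2 in the plots, represented the gene by the rule of the brightest kept probe. It read 1489, 1564 and 1507 in wild type and 573, 729 and 974 in Ad-Lkb1. Its log2 ratio was -0.0095, 0.028 and 0.51, a mean of 0.18 ± 0.29 (SD, n = 3), not past the threshold (SE 0.13, adjusted p = 0.44, limma). Array 3 was the high one, and without it the mean was 0.0091. The other probes carry NM_010777. The first, Mbp probe 1, had -0.10, -0.12 and -0.089 (mean -0.10, adjusted p = 0.36 over all probes). The second, Mbp probe 3, had -0.29, -0.084 and 0.11 (mean -0.090, adjusted p = 0.61). None of the 3 was called, where 8.73% of all 25031 kept probes were, and the mean over them was -0.0057. With median centring the representing probe turned to -0.53 and the third had -0.43, where the median of all features was -0.42. Mbp probe 1 ran from -0.51 (processed signals) to -0.097 over its 11 alternatives and never passed.

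Sox10, the transcription factor that Schwann cells need throughout life, was measured well above background on all 3 arrays in both genotypes. Its spot read 97, 96.5 and 106 in wild type over backgrounds of 49, 48 and 50, and 34, 52 and 44 in Ad-Lkb1 over 16.5, 17 and 17. The ratio was -0.027, 0.26 and 0.029, a mean of 0.086 ± 0.15 (SD, n = 3), and the groups overlapped (SE 0.087, adjusted p = 0.57, limma). Its sign was not settled, since it was -0.075 with the processed signals. With median centring it was -0.16, which was 0.26 above the median of all features there (-0.42).

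Ngfr encodes the low-affinity neurotrophin receptor of Schwann cells and sympathetic neurons, which some mesenchymal cells also carry. Its probe was printed 10 times, and the spread of these spots covers printing and hybridisation error only, not the difference between animals. The median spot read 94.5, 100.25 and 165.25 in wild type on arrays 1 to 3 and 39.5, 37.5 and 34 in Ad-Lkb1. The wild-type spots of array 3 ran from 150 to 197.5, above all used spots of arrays 1 and 2, which ran from 84 to 114. In Ad-Lkb1 the spots of the 3 arrays overlapped (28 to 44.5). The mean ratio of the spots was 0.074 on array 1 (SD over 8 used spots 0.064), -0.087 on array 2 (0.052 over 10 spots) and -0.70 on array 3 (0.053 over 10 spots). The SD between arrays was 0.41, larger than that of all but 8.33% of the features. The mean of -0.24 did not pass (SE 0.17, adjusted p = 0.42, limma), and without array 3 it was -0.0069. Over the 12 alternatives it ran from -0.71 to -0.0069 and never passed. Normalized wild-type levels were 6.64, 6.67 and 7.19 in array order, while Ad-Lkb1 had 6.72, 6.58 and 6.49. In the wild-type sample of array 3 the lymphocyte sum was also the highest, 10.74 on the log2 scale against 10.06 and 10.03 in the other wild-type samples, as were the macrophage sum, 12.58 against at most 11.73, and the sum of fibroblast and progenitor markers, 14.09 against 13.76 and 13.56. The skeletal muscle sum was lowest there, 9.25 against 13.11 and 10.95. The part of these cells in the Ngfr value was not tested.

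**Figure D4:**
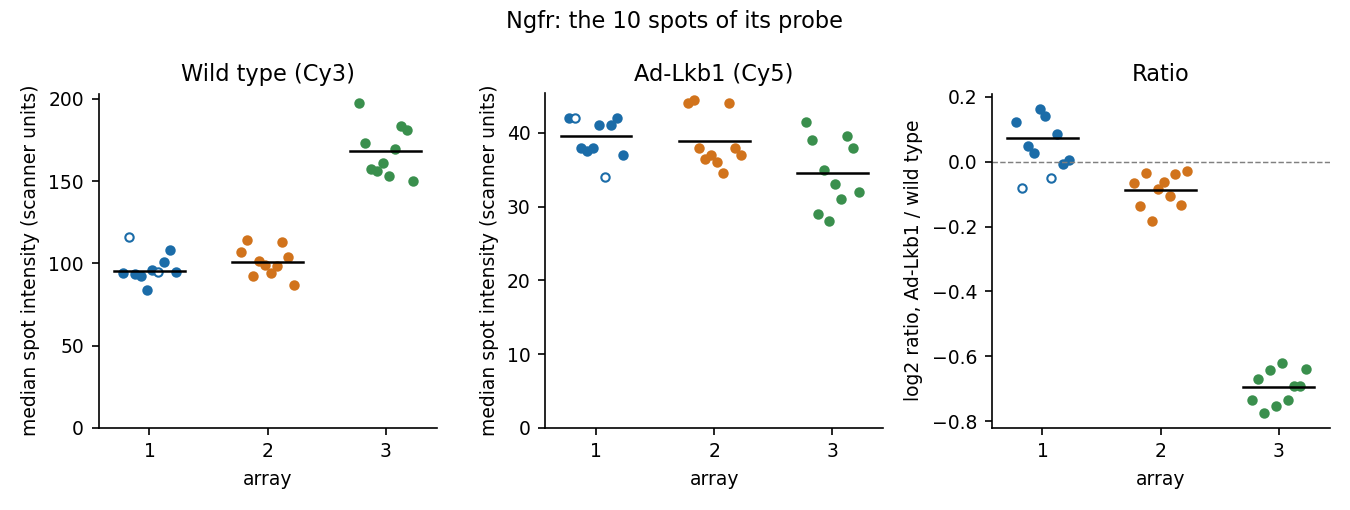
The 10 spots of the Ngfr probe on each array, as intensity in wild type (left) and Ad-Lkb1 (middle) in scanner units and as log2 ratio (right). Lines are means of the spots used, and open points are spots marked as outliers. The wild-type spots of array 3 (150 to 197.5) lay above those used on arrays 1 and 2.

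Of 27 further Schwann cell and myelin genes, 18 were tested, and 1 rose and 0 fell, against 4.78% and 3.92% of all features. The median of the 18 was 0.059. The gene that rose was S100b, a calcium-binding protein that marks Schwann cells and is also made by brown adipocytes. Its log2 level was 12.24, 12.00 and 11.37 in wild type and 13.85, 13.88 and 13.93 in Ad-Lkb1, so it was steady in Ad-Lkb1 and spread in wild type. It had ratios of 1.61, 1.88 and 2.56 (mean 2.02 ± 0.49 SD, adjusted p = 0.018, limma), and it lost the call without array 1 or without array 2. The other 17, among them Pmp22, Mag, Cnp, Prx and Gjb1, did not pass. Cdh19, Erbb3 and Foxd3 were below the detection rule. With median centring the median of the list was -0.19 and that of all features -0.42. There 4 genes passed, as did 10097 of all 19328 features.

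Nerve growth and guidance genes, which target tissues make for axons or axons carry, had 14 of 21 tested, with 0 higher and 2 lower. Over all features 4.78% were higher and 3.92% lower. The median of the 14 genes was -0.034 (0.0045 without array 3). With median centring it was -0.57, where the median of all features was -0.42. Nrtn, which encodes neurturin, a growth factor of the GDNF family, fell with -1.25, -0.90 and -0.91 (mean -1.02 ± 0.20 SD, adjusted p = 0.018, limma). Ntrk3, which encodes the receptor TrkC, fell with -1.53, -1.47 and -0.75 (mean -1.25 ± 0.43 SD, adjusted p = 0.031). The other 3 kept probes of Ntrk3 had means of -1.50, -1.58 and -1.98, all past the threshold in the fit over probes (adjusted p = 0.037, 0.021 and 0.019). Nrtn lost the call under 2 of the 12 alternatives and Ntrk3 under 5, and both were below 0 under all of them. Gdnf, Artn, Bdnf and Nrg1 were below the detection rule.

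**Figure D5:**
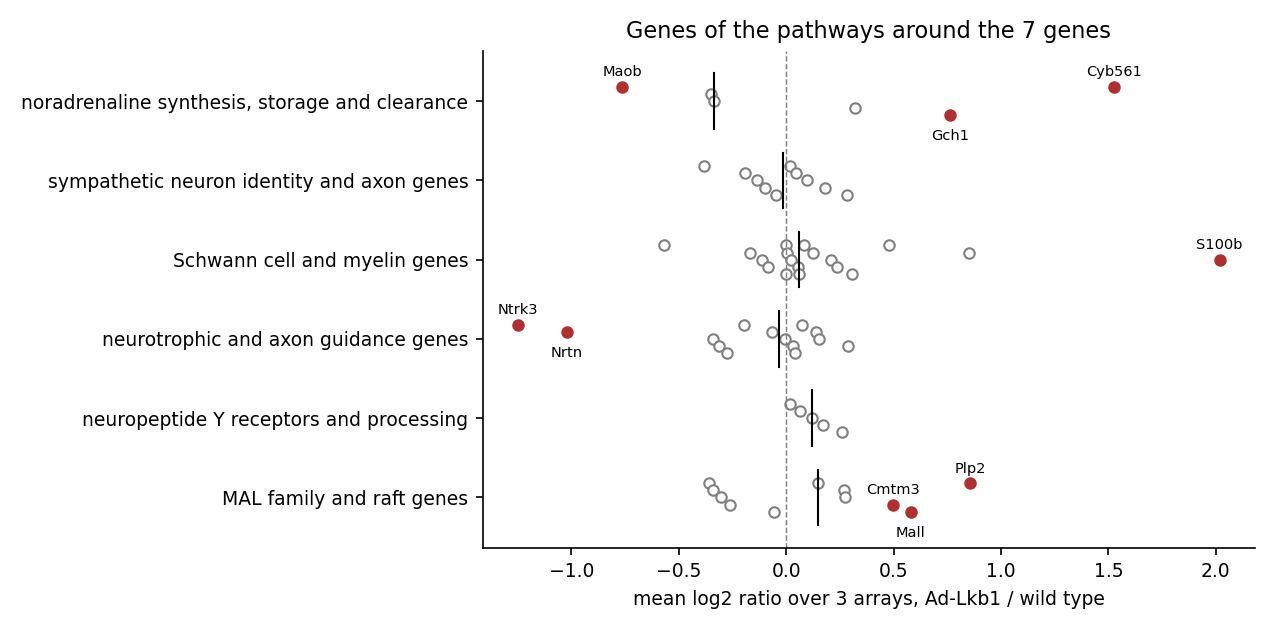
Mean log2 ratio over 3 arrays of the tested genes in 6 lists around the 7 genes. A called gene that is not reported here is not drawn. Filled named points passed the adjusted p threshold of 0.05, open points did not, and vertical bars are list medians. Of the 65 genes, 10 passed, 6 higher and 4 lower, where 8.70% of all features and 10.6% of those with a gene symbol passed.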

How the data were processed

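Each array held 1 Ad-Lkb1 sample (Cy5) and 1 wild-type sample (Cy3), per the labels. The deposited scanner files give median spot and local background intensity per channel, per the file headers, as written by Agilent Feature Extraction, whose version the submitters' processing notes give as 11.5. Also present are processed intensity and a log10 ratio, again per the file headers. The deposited table of values equals that log10 ratio (Cy5 over Cy3) to within 0.0049, so its scale and direction are known. Its median was 0.0 on each array. The software had set 26.8% to 27.8% of ratios to 0, so that median does not show how the table was centred. Converted to log2, it had a median of -0.042 over the features tested.

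Intensities were background-corrected with normexp (offset 50) and normalized by loess within each array, control spots at weight 0, in R 4.3.3 with limma 3.58.1. Control spots, outlier spots and 3 incomplete features were left out. Spots sharing a probe were averaged. Probes were kept where the software marked them well above background for 1 channel or both, the same on every array (25031 of 55678). Symbols came from a RefSeq table (GRCm38.p6) by accession, and 28025 probes matched 1 symbol. A gene was represented by its brightest kept probe. The log2 ratio was tested against 0 with limma (lmFit, eBayes, intercept only) over 19328 genes and unnamed features, Benjamini-Hochberg threshold 0.05. Channel levels are after loess and Aquantile. A second fit covered the 25031 kept probes.

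The 7 genes and the gene lists were chosen with earlier results of these data known. Named genes were the 7 genes, up to 3 called genes per direction in each pathway list, the gene of smallest p in a list with no call, and the 3 genes nearest to each called one of the 7. Some genes of the lists enter the counts but are not reported here by name. The fit was tested on simulated arrays. Alternatives were median centring, no background subtraction, offset 10, processed signals, the deposited table, no filter, a filter on both channels, the mean of a gene's probes, scaling between arrays, and each array left out.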

Additional observations from a re-analysis of the deposited data

How the results depend on the processing

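Mal above 0 and Th below 0 held under all 12 alternatives, but their calls did not. Median centring moved the median of all features to -0.42, so a value below 0 under it can still lie above that median. Mal ranged from 1.70 to 1.95 with an array left out. Th missed the threshold with processed signals (-0.50), the deposited table (-0.49), no background subtraction (-0.40) or an offset of 10 (-0.41), and also with any array left out (-0.43 to -0.39). Mbp turned to -0.53 with median centring (the same for its representing probe) and to -0.0057 with the mean of its probes. The third Mbp probe passed with median centring (-0.43), and with an array left out ranged from -0.19 to 0.013, the value above 0 being that without array 1. Sox10 turned to -0.16 with median centring and to -0.075 with the processed signals and with the deposited table. Dbh and Npy were not well above background, so their values show only how far the setting moves such a ratio. Dbh moved to 0.18 with median centring and -0.18 with the processed signals. Npy moved to 1.41 with the deposited table, 1.34 with processed signals, 0.31 at offset 10 and 0.30 with background left in. Cmtm3 turned to -0.057 with median centring. Of all features, 10097 passed with median centring, 807 with the processed signals, 806 with the deposited table, 1033 without a filter, and 0 to 2052 with an array left out. Of the pathway genes, 10 of 65 in the reported fit, 29 passed with median centring, 6 with the processed signals, 6 with the deposited table and 0 to 9 with an array left out. The counts of 0 were without array 1 and without array 2, where limma had 3928 and 3563 features at an unadjusted p under 0.05. The cause was not tested. Depth here is signal over background, which limits Dbh and Npy. Because each ratio is taken within an array, the fit is paired by construction.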

Other observations

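Other values, chosen after they were seen, varied widely between arrays. Egr2, a transcription factor of myelinating Schwann cells that stimulated cells of many types also induce, had log2 ratios of 2.19, 1.18 and -0.81 on arrays 1 to 3 and did not pass the threshold (mean 0.85 ± 1.53 SD, n = 3, limma adjusted p = 0.41). Mog, a surface protein of oligodendrocyte myelin, had -0.086, -1.67 and 0.11 (mean -0.55, adjusted p = 0.41), so its mean rests on array 2.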
